A study of Mus musculus with 16 samples.

Results

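The neighbourhood of Fli1 and Ets1, adjacent genes for ETS transcription factors on mouse chromosome 9, held 217 of the 185978 regions of open chromatin called in thymocytes. It was defined by position alone. Every ATAC-seq peak of the 4 stage lists was taken that overlapped chr9:32322204-33157820 in mm10 by at least 1 bp, which reaches from 100 kb before the lower end of Fli1 to 400 kb past the end of Ets1 in GENCODE M21. Fli1 occupies chr9:32422204-32542861 on the minus strand and Ets1 chr9:32636221-32757820 on the plus strand, so the 2 genes are transcribed away from each other. The window was 835617 bp long and held 560 peaks, of which 130 were from the DN list, 132 from DP, 145 from SP4 and 153 from SP8. They merged into the 217 regions wherever they shared at least 1 bp.

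ATAC-seq, in which a transposase cuts open DNA and tags the ends for sequencing, was run on thymocytes sorted by flow cytometry from the thymus of wild type C57BL/6J mice aged 9 weeks. DN cells carry neither CD4 nor CD8, DP cells carry both, and SP4 and SP8 cells carry CD4 or CD8 alone. Each of the 4 stages had 4 libraries, 1 from each of 4 mice. The sort left out cells with markers of other lineages, and it took DN cells without surface CD3 and SP4 and SP8 cells with it. The 4 libraries of a stage were pooled before peaks were called, so each value below stands for 1 pooled list, no spread between mice is known and no test between stages could be made. DN is itself a mixture of several early stages, and the fraction of cells that use a site cannot be told apart from how open the site was in each cell.

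ETS factors share a winged helix-turn-helix domain that binds DNA around a GGAA core. Ets1 is needed for normal thymocyte maturation and acts with RUNX factors at T cell receptor enhancers, while Fli1 is best known from blood stem cells, megakaryocytes and vessel endothelium and is also made in lymphocytes. Thymocytes pass from DN to DP at the beta selection checkpoint and from DP to SP4 or SP8 at positive selection, the transitions along which the 4 lists were compared.

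The results below turn on 8 of the regions, whose DNA, or for Fli1 the DNA before its start site, is shown here so that motifs can be seen beside the values. Regions are named by the distance in kb of their highest summit from the Ets1 start site, with a minus sign on the Fli1 side. Sequences are mm10, 5′ to 3′, and capitals mark exact matches, on either strand, to the motifs of 7 families. These were ETS (CCGGAAGT, ACCGGAAG or CAGGAAGT), RUNX (TGTGGTT or TGCGGTT), E-box (CAGCTG or CAGGTG), TCF7/LEF1 (CTTTGAA or CTTTGAT), zinc finger proteins of the GATA family (AGATAA), AP-1 (TGANTCA) or the core of the CTCF motif (AGGGGGC or AGGTGGC). Each stretch lies outside the annotated exons.
The 300 bases before the main Fli1 start site, mostly outside the -94.9 region, chr9:32541596-32541895, minus strand: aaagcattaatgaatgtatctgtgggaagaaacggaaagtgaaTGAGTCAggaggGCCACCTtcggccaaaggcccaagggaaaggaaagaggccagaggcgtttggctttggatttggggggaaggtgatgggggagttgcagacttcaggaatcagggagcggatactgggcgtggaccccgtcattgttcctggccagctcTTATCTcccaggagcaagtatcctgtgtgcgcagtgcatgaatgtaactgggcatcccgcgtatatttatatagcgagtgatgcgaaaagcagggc
The 300 bases before the upstream Ets1 start site, at the -0.4 region, chr9:32635921-32636220, plus strand: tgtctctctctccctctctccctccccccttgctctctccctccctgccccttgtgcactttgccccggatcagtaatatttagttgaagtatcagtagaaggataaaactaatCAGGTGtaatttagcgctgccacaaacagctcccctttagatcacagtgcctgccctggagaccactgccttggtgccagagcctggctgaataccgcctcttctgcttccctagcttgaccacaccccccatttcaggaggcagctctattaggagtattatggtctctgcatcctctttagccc
The 300 bases before the downstream Ets1 start sites, at the +59.7 region, chr9:32695722-32696021, plus strand: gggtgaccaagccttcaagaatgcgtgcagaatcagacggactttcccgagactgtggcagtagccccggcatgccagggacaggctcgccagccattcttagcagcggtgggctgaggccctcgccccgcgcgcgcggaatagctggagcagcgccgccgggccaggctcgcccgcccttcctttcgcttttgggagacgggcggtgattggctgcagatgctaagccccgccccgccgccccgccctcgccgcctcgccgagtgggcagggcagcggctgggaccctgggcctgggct
The -65.4 region, highest by percentile between the genes, chr9:32570676-32570975, plus strand: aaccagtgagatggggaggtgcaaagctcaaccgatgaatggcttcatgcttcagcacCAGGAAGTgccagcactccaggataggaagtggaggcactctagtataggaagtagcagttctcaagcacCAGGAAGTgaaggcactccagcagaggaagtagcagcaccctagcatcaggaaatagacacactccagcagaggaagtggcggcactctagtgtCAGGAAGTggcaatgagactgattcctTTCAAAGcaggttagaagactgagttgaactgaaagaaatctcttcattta
The +179.5 region, highest by percentile of the whole window, chr9:32815543-32815842, plus strand: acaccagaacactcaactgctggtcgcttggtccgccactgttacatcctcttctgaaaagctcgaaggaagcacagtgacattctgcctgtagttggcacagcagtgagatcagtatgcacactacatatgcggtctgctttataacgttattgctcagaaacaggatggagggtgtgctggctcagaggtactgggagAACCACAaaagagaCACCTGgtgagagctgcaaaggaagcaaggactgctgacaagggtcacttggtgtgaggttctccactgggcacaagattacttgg
The +424.5 region, higher at each later stage than at DN, chr9:33060605-33060904, plus strand: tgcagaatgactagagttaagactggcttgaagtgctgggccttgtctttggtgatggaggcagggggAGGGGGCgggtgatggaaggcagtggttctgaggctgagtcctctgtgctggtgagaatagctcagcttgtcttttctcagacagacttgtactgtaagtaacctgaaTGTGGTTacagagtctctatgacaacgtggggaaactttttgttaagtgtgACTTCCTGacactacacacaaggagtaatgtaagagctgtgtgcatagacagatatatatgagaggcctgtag
The +154.2 region, highest by percentile of those called at DN and DP alone, chr9:32790307-32790589, plus strand: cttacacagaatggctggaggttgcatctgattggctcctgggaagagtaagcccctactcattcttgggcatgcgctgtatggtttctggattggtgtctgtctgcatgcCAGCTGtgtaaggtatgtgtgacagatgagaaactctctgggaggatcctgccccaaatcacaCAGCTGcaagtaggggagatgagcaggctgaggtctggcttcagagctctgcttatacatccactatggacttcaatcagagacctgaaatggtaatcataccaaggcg
The +95.8 region, highest by percentile of those called at SP4 and SP8 alone, chr9:32731843-32732142, plus strand: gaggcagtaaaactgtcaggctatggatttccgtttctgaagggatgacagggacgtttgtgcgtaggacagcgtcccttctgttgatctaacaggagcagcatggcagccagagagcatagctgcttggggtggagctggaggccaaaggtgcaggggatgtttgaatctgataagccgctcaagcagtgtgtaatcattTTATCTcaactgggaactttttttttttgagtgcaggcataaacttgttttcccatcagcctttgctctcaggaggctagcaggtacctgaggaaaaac

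The height of a region at a stage was measured in 2 ways. The percentile is the share of the stage's own list with a lower fold enrichment, the ratio of reads at the summit to the local background. The scaled pileup is the number of reads at the summit over the genome-wide background of that list. It was solved from the deposited fold enrichment and p-value, with no peak of the window left unsolved. The genome-wide backgrounds of the 4 lists lay between 3.22 reads at SP4 and 3.58 reads at SP8. The 2 measures differ here because the local background around Fli1 and Ets1 was itself high, with medians over the window's peaks of 2.40, 4.18, 3.49 and 4.52 times the genome-wide level from DN to SP8 and a highest value of 18.4 in SP4. Over all peaks of the lists these medians were 1.63 to 1.78. Intervals in brackets are 95% Poisson limits of the reads and cover counting error only. Where no peak was called, signal too weak for the caller may still be present.

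Fli1 and Ets1 each had a called promoter at all 4 stages. The summit of the -94.9 region, chr9:32541273-32541639, which covers the main Fli1 start site at 32541595, held 99 reads [80.5, 121] in DN, 102 [83.2, 124] in DP, 73 [57.2, 91.8] in SP4 and 149 [126, 175] in SP8. Scaled by the backgrounds these were 28.2, 31.1, 22.7 and 41.6, so that SP4 stood at 0.545 times SP8. The percentiles were 24.5, 21.9, 9.19 and 43.5 in the same order, with a local background of 6.85 to 8.1 times the genome-wide level. A second annotated Fli1 start site at 32542861 lay in no called region. The AP-1, CTCF core and GATA matches in the printed stretch before this site all lie beyond the end of the called region.

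Ets1 has start sites in 2 places, and the downstream one had the higher scaled pileup at every stage. The -0.4 region, chr9:32635623-32636365, lies over the upstream start site at 32636221 and had scaled pileups of 9.69 in DN, 8.85 in DP, 10.9 in SP4 and 13.7 in SP8, on 29 to 49 reads. The +59.7 region, chr9:32695542-32696531, spans 4 annotated start sites from 32696022 to 32696384 and had scaled pileups of 52.4, 73.0, 72.4 and 79.0 in the same order. At 990 bp the +59.7 region was also among the 3 widest regions of the window. By percentile the 2 places were closer and the order was reversed at SP8. From DN to SP8 the -0.4 region stood at 65.6, 52.3, 65.8 and 71.2, and the +59.7 region at 70.6, 70.7, 69.6 and 64.5. The local background was 1.0 to 1.3 times the genome-wide level at -0.4 and 5.75 to 8.84 times at +59.7. The 2 promoters differ in base composition, since the 300 bases before the downstream sites were 70.3% G or C and those before the upstream site 52.3%. From DN to DP the downstream promoter was 1.39 times as high, with 184 reads [158, 213] against 239 [210, 271], and SP4 and SP8 stood at 0.992 and 1.08 times DP.

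Among ETS genes as a whole a called promoter was common. Of the 26 mouse ETS genes 24 lie on autosomes, the chromosomes that the lists cover, and a start site or the 200 bp upstream was called in 19 of them in DN and in 17 in each later list. Over all autosomal protein-coding genes the share was 66.4% in DN, 62.5% in DP, 61.0% in SP4 and 60.6% in SP8. The 5 genes with no called start at any stage were Fev, Elf3, Etv2, Spic and Spdef. The highest promoter was that of Etv5, at 237, 312, 339 and 402 in the order DN, DP, SP4 and SP8 on the scaled pileup. Erg, the closest relative of Fli1, went the other way, with 42.7, 25.6, 11.8 and 8.38, and Spi1, which encodes the myeloid and early progenitor factor PU.1, was called at DN with 7.12 and at no later stage.

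Ets1 and Fli1 also differed from most of the family in how many sites their gene bodies held at SP8 relative to DN. Regions overlapping the Ets1 body numbered 30 in DN, 35 in DP, 38 in SP4 and 41 in SP8, and those in the Fli1 body 33, 31, 25 and 35. At DP and SP4 the Fli1 body thus held fewer than at DN. The body of Etv6, a repressor of the family, held 65, 43, 40 and 38, and that of Erg 40, 30, 27 and 21. Of the 24 genes 3 (Ets1, Fli1 and Gabpa) held more regions at SP8 than at DN, 16 held fewer and 5 as many. The SP8 list as a whole was shorter than the DN list, at 104411 against 150139 peaks.

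Taken as a whole the window was dense in open chromatin, and it held more peaks at SP4 and SP8 than at DN while each later list was shorter than the DN list. Per 100 kb the window held 15.6 DN, 15.8 DP, 17.4 SP4 and 18.3 SP8 peaks, against 6.10, 4.35, 4.67 and 4.24 over the autosomes, which is 2.55, 3.63, 3.71 and 4.32 times as many. Among 2938 consecutive windows of the same length, 276 held more DN peaks and 17 more SP8 peaks. The ratio of SP8 to DN peaks was 1.18 here and 0.695 over the lists, and 10 of the 1229 windows with at least 50 DN peaks had a higher one. With flanks of 100 kb on both sides the counts were 111, 111, 110 and 119 from DN to SP8, an SP8 to DN ratio of 1.07, so most of the added SP peaks lay in the long flank past Ets1. A window with the same flanks around Gata3, 100 kb before its start and 400 kb past its end, held 76 DN and 71 SP8 peaks, a ratio of 0.934, and that at Bcl11b 130 and 123, a ratio of 0.946. Gata3 and Bcl11b encode T lineage factors and also lie beside a gene desert.

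**Figure D1:**
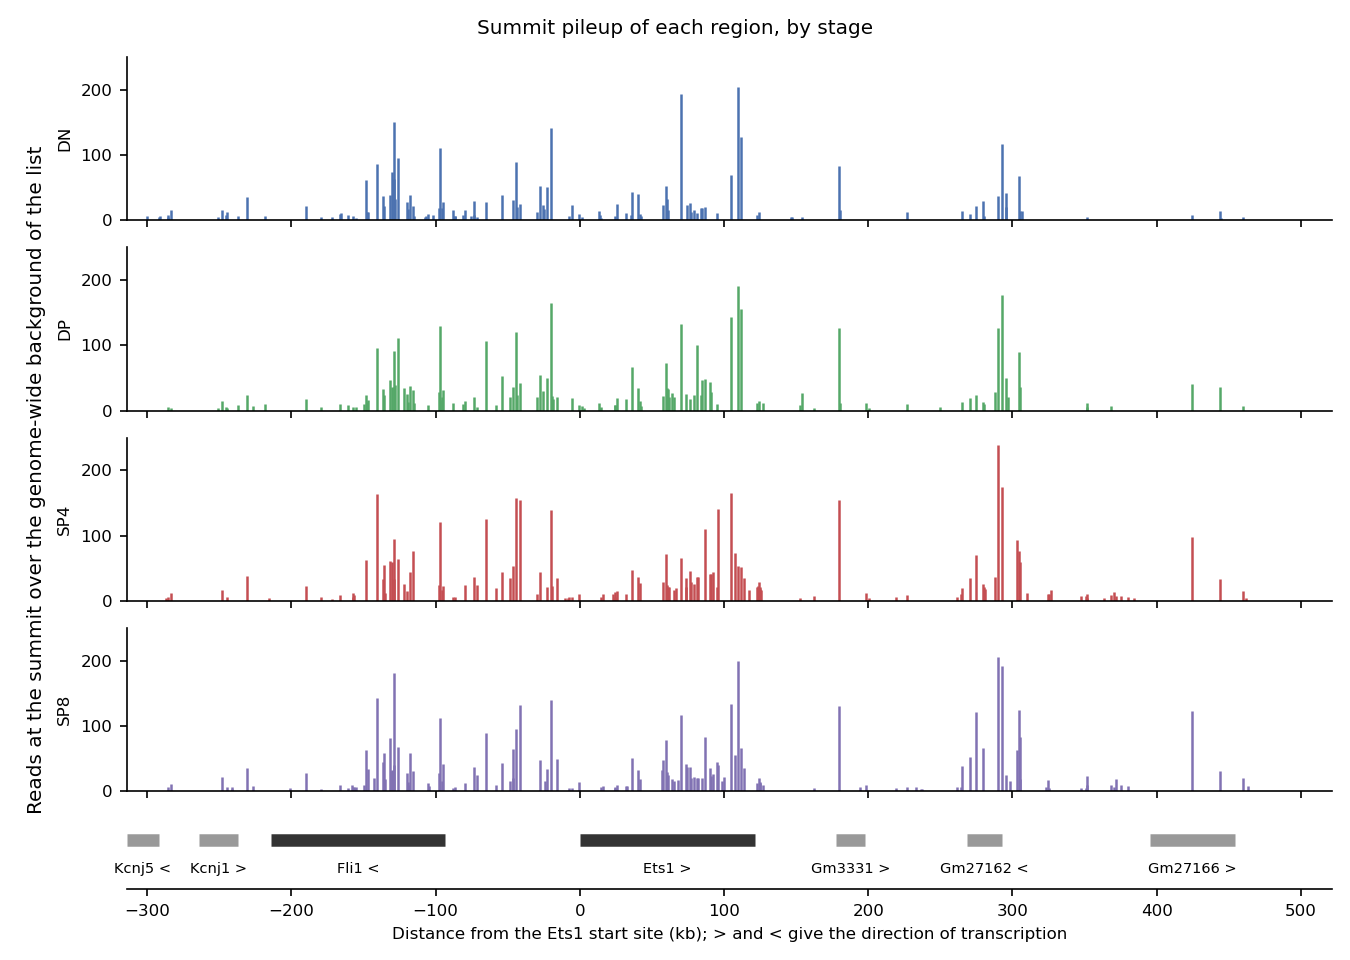
Reads at the summit over the genome-wide background of the list (vertical axes, linear, the same in all 4 panels) against the distance from the Ets1 start site in kb, with 1 line for each region called at that stage and gene bodies drawn below. Tall lines stand in the Fli1 and Ets1 bodies, between the genes, at +179.5 and near +290.2, and between 200 and 300 kb past the end of Ets1 the lines stand mainly in the SP4 and SP8 panels.

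The bodies of the 2 genes and the space between them were the densest zones. Ets1 held 53 regions by the position of their summits, 43.6 per 100 kb, Fli1 47 or 39.0, and the 93359 bp between the genes 33 or 35.3. The 100 kb before Fli1 held 18 and the 400 kb past Ets1 held 66. In the flank before Fli1, which includes the potassium channel genes Kcnj5 and Kcnj1, calls went from 13 at DN and 10 at DP to 7 at SP4 and 8 at SP8. Past Ets1 they went from 25 and 30 to 46 and 44. The lower SP counts before Fli1 stand beside lists that were themselves shorter, with ratios to DN of 0.766 for SP4 and 0.695 for SP8.

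Between 200 and 300 kb past the end of Ets1 the contrast was sharpest. Of 15 regions there, 1 was called in DN, 3 in DP, 14 in SP4 and 12 in SP8. At SP4 or SP8 but at neither DN nor DP 12 were called, a set that made up 15.4% over all regions. Most of these calls were weak. The 14 SP4 summits held 404 reads in all and the 12 SP8 summits 451, where the median of a single peak was 42 in the SP4 list and 50 in the SP8 list. The flank holds no protein-coding gene, and the lncRNA genes annotated in it are Gm3331, Gm27162, Gm27166 and Gm32171. Gm27162 alone of these had a called start, at the +292.6 region, at all 4 stages. The closest 100 kb past Ets1 held 7, 10, 12 and 10 calls at DN, DP, SP4 and SP8, the next 100 kb 13, 14, 16 and 18, and the last 100 kb 4, 3, 4 and 4 in the same order. No region was called in the last 57875 bp of the window.

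**Figure D2:**
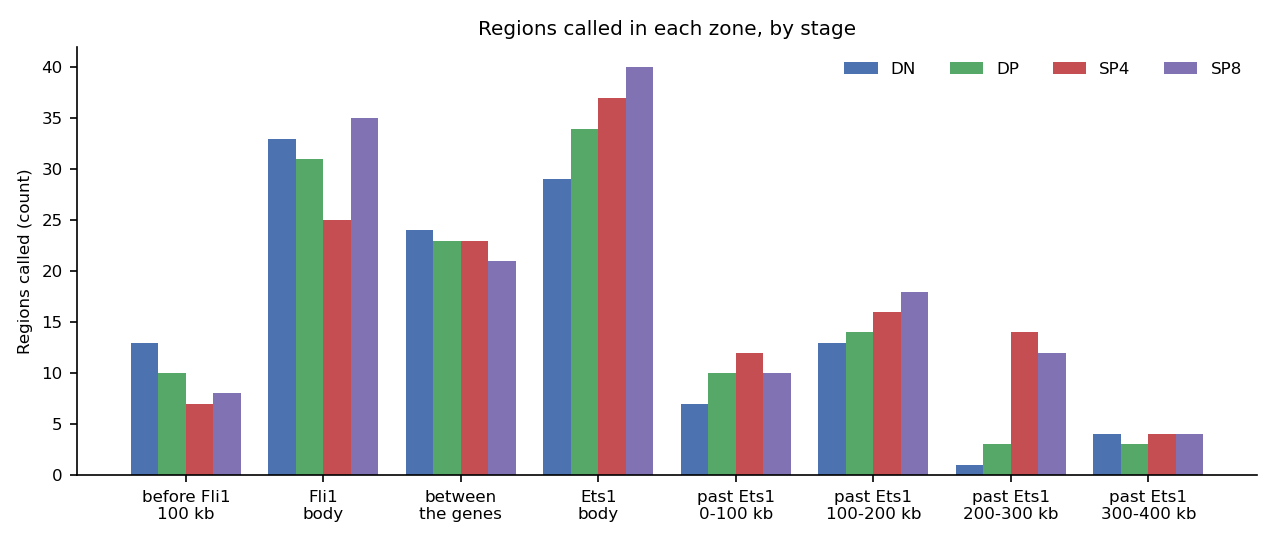
Number of regions called (vertical axis) in each zone of the window, with 1 bar per stage. From 200 to 300 kb past Ets1 the bars stand at 1 for DN, 3 for DP, 14 for SP4 and 12 for SP8, while before Fli1 the DN bar, at 13, is the highest.

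The stages that shared a region were distributed unlike those of the genome. All 4 stages shared 73 regions, 33.6%, which is close to the 34.1% over all regions. DN alone had 17, or 7.83% against 21.7% over all regions. SP4 and SP8 together, without DN and DP, had 22, or 10.1% against 3.82%, SP8 alone had 25, or 11.5% against 4.21%, and SP4 alone 19, or 8.76% against 7.39%. DP, SP4 and SP8 without DN had 12, or 5.53% against 1.77%. DN and DP together had 18, or 8.29% against 5.59%, DP alone had 6, or 2.76% against 5.17%, and the set without DP had 3, or 1.38% against 4.05%. The remaining 6 sets held 1 to 7 regions each.

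In all, 93 regions, 42.9%, were not called at DN, against 24.3% over all regions. SP4 or SP8 without DN or DP made up 66 regions, 30.4%, against 15.4%, and DN or DP without SP4 or SP8 made up 41, 18.9%, against 32.5%. The share of regions that appeared at the SP stages was 23.0% in the Gata3 window and 15.6% in the Bcl11b window. The 25 regions called at SP8 alone had a median percentile of 7.91, against 17.1 over all such regions, and 17 of them lay under the percentile of 20. On the scaled pileup their median was 8.65 against 6.14, and that of the 19 called at SP4 alone was 11.5 against 5.90. By percentile the 22 shared by SP4 and SP8 had a median of 52.0 at the higher of the 2 stages, against 43.6 over all such regions, and 12 lay above 50.

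**Figure D3:**
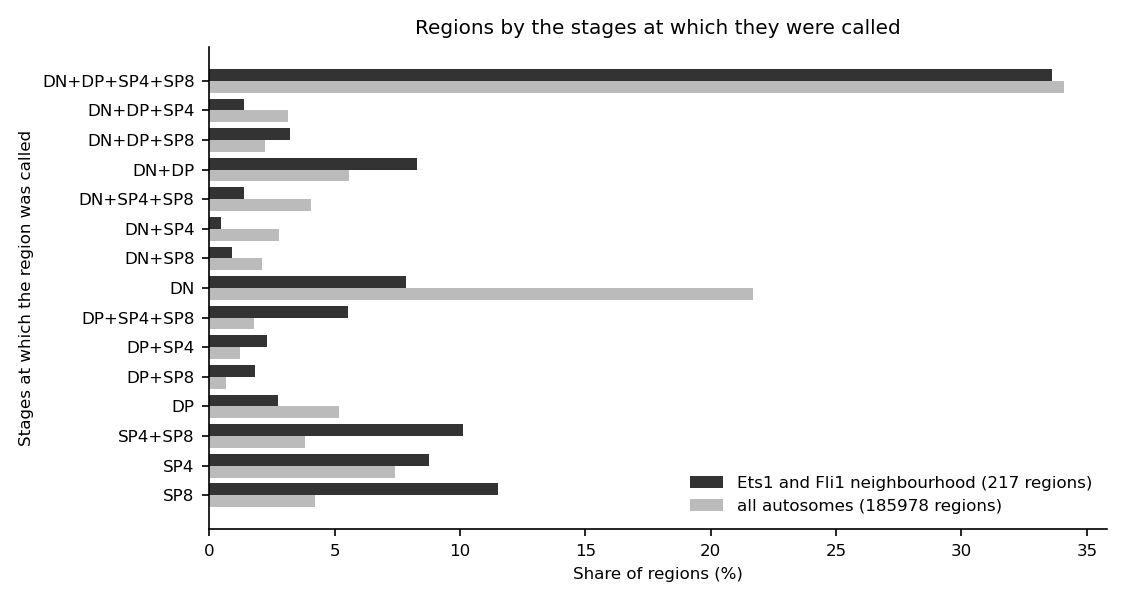
Share of regions in percent (horizontal axis) for each set of stages (vertical axis), in the neighbourhood (dark bars, 217 regions) and over all autosomes (light bars, 185978 regions). The dark bar is shorter than the light one for DN, at 7.83 against 21.7, and longer for SP8, at 11.5 against 4.21, and for SP4+SP8, at 10.1 against 3.82.

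From DN to DP, fewer of the window's sites were lost and more were gained than over the genome. Of 151 regions called at DN or DP, 101 were called at both, 23 at DN alone and 27 at DP alone. These are 15.2% and 17.9%, against 36.3% and 10.5% over all regions. Of 173 called at DP or SP4, 35 were called at DP alone and 45 at SP4 alone, or 20.2% and 26.0%, against 19.0% and 25.1%, so this step was near the background. Of 180 called at DP or SP8, 32 were called at DP alone and 52 at SP8 alone, or 17.8% and 28.9%, against 22.2% and 20.8%. Between the 2 SP stages, 38 of 176 regions were called at SP8 alone and 28 at SP4 alone, or 21.6% and 15.9%, against 13.7% and 21.6%. With every list cut to its 104411 peaks of highest −log10 q, 3.76% of the regions called at DN or DP were called at DN alone and 35.3% at DP alone, against 21.5% and 20.6% over all regions.

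The 73 regions called at every stage had a higher median scaled pileup at the later stages. This median scaled pileup was 25.6 in DN, 31.1 in DP, 35.4 in SP4 and 38.0 in SP8, where that of all such regions was 23.4, 20.2, 22.4 and 22.3. The median local background around them went from 3.27 at DN to 4.40, 5.63 and 5.13, against 2.27, 2.05, 2.08 and 2.06. Region by region the directions were mixed, with 43 of 73 higher at DP than at DN, 43 higher at SP4 than at DP and 44 higher at SP8 than at DP. Their median percentile was 57.7, 62.5, 61.1 and 64.5 from DN to SP8, below the 73.5, 68.2, 69.4 and 67.1 of all such regions. From DN to DP, 11 of the 73 were at least 2 times as high on the scaled pileup and 5 at least 2 times as low, where the background was 4.13% and 14.1% of 63361 regions. From DP to SP4 the counts were 13 and 7, with 13.4% and 8.28% over all regions. From DP to SP8 they were 17 and 5, with 12.6% and 9.19%, and SP4 set against SP8 gave 1 higher and 4 lower, with 6.19% and 4.55%.

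By percentile, which rests on the fold enrichment over the local background, the directions were more even. A gain of 25 points or more was seen in 5 regions from DN to DP (4.84% over all shared regions), 6 from DP to SP4 (9.92%), 9 from DP to SP8 (8.90%) and 2 at SP4 relative to SP8 (6.71%). A loss of 25 points or more was seen in 6 (11.7%), 9 (8.55%), 7 (9.76%) and 7 (4.63%). The 2 measures gave opposite directions for 1 of these shifts, the -136.5 region from DP to SP4, which was named after its values were seen.

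The +179.5 region, chr9:32815483-32815865, in an intron of the lncRNA gene Gm3331, was the highest of the window by percentile, at 99.1 in DN, 99.9 in DP, 99.9 in SP4 and 99.8 in SP8. Its summit held 291 reads [259, 326] in DN, 416 [377, 458] in DP, 498 [455, 544] in SP4 and 466 [425, 510] in SP8, and the deposited fold enrichments were 28.7, 36.1, 40.7 and 37.9. It was open at all 4 stages and lowest at DN, with DP 1.53 times as high on the scaled pileup. Its sequence held a RUNX match, as AACCACA, beginning at base 201 of the printed stretch, and an E-box, CACCTG, beginning at base 215.

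Between the genes the -65.4 region, chr9:32570580-32571056, was the highest by percentile, at 92.8 in DN, 99.8 in DP, 99.7 in SP4 and 99.1 in SP8. Its summit held 101 reads [82.3, 123] in DN, 352 [316, 391] in DP, 404 [366, 445] in SP4 and 320 [286, 357] in SP8. The DN value lay below the intervals of the other 3 stages, and DP was 3.73 times DN on the scaled pileup, at 107 against 28.8. The printed stretch holds the ETS motif CAGGAAGT at bases 59, 129 and 223. The shorter string AGGAAGT, which was chosen after this sequence was seen, occurred 7 times in the 300 bases around the summit, each time on the plus strand. The copies began at bases 60, 83, 106, 130, 153, 200 and 224, so that neighbours lay 23 or 24 bases apart except for 1 step of 47. As many or more, on either strand, were found around 10 of the 185978 summits, this one included, or 0.00538%, and no other region of the window had more than 2. Because the string was picked from this sequence, that share is a description and cannot test whether ETS sites are dense there. Around any summit at least 1 copy was found in 17.5% of the regions of the window and 18.1% of all regions.

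Of the other regions between the genes, 2 of the highest by percentile varied less between stages. The -20.1 region, chr9:32615873-32616350, in an intron of the lncRNA gene Gm47680, had scaled pileups of 141 in DN, 165 in DP, 139 in SP4 and 140 in SP8, and percentiles of 93.2 to 95.9. The -54.1 region, chr9:32581709-32582538, had 38.8, 53.4, 45 and 43.6. The -44.4 and -41.8 regions, named after their values were seen, were also high on the scaled pileup. The -44.4 region, chr9:32591715-32592375, had 90.0, 121, 157 and 95.5 from DN to SP8. Its percentiles fell along the same order, at 86.8, 82.4, 78.1 and 67.2. The local background there was 6.03, 9.32, 12.8 and 10.0 times the genome-wide level. The -41.8 region, chr9:32594293-32594787, had 25.6, 42.4, 155 and 132, so that SP4 and SP8 were 3.66 and 3.12 times DP. The -71.4 region, chr9:32564555-32564978, was likewise lower until DP and higher after it. It held 18 reads [10.7, 28.4] in DN, 17 [9.90, 27.2] in DP, 81 [64.3, 101] in SP4 and 92 [74.2, 113] in SP8, so that SP4 and SP8 were 4.85 and 4.95 times as high as DP.

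Just before Ets1 a region had the reverse pattern. The -5.6 region, chr9:32630326-32630785, at the start of the lncRNA gene Gm31928 of the RefSeq annotation, held 83 reads [66.1, 103] at DN, 64 [49.3, 81.7] at DP, and 18 [10.7, 28.4] at both SP4 and SP8. The SP4 value was 0.286 times and the SP8 value 0.257 times that of DP on the scaled pileup. The +13.1 region, chr9:32649165-32649523, which overlaps an exon of Ets1, had the same tendency in calls, with 52 reads [38.8, 68.2] at DN, 38 [26.9, 52.2] at DP and no peak at SP4 or SP8.

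Inside Fli1 the highest regions by percentile were open throughout. The -140.4 region, chr9:32495440-32496115, had scaled pileups of 85.5, 95.3, 164 and 143 from DN to SP8, and the -96.8 region, chr9:32539243-32539843, had 111, 129, 121 and 112. On the scaled pileup the first was higher at the SP stages, by 1.72 times for SP4 and 1.5 times for SP8 over DP. Its percentiles showed no such rise, being 89.5, 92.1, 92.0 and 88.5 in stage order. Its local background rose too, from 4.99 times the genome-wide level in DP to 8.13 in SP4 and 7.87 in SP8. The scaled pileup of the -96.8 region differed by at most 1.16 times along any transition. The -115.4 region, chr9:32520550-32521204, stood out at SP4, with 75 reads [59.0, 94.0] in DN, 102 [83.2, 124] in DP, 245 [215, 278] in SP4 and 113 [93.1, 136] in SP8. SP4 was 2.41 times SP8 there, and this was the 1 region of the 73 shared by all stages that was at least 2 times as high at SP4 as at SP8. The -130.0 region, chr9:32506159-32506494, alternated, with 262 reads [231, 296], 117 [96.8, 140], 191 [165, 220] and 109 [89.5, 131] from DN to SP8.

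The body of Ets1 held regions with strong differences between DP and the SP stages. The +81.2 region, chr9:32717209-32717799, peaked at DP, with 40 reads [28.6, 54.5] in DN, 330 [295, 368] in DP, 118 [97.7, 141] in SP4 and 71 [55.5, 89.6] in SP8. DP was 8.84 times DN, and SP4 and SP8 were 0.364 and 0.197 times DP on the scaled pileup. The +109.9 region, chr9:32745799-32746481, was low at SP4 alone, with 716 reads [665, 770] in DN, 626 [578, 677] in DP, 172 [147, 200] in SP4 and 717 [665, 771] in SP8. Its summit window held an ETS match, and SP4 stood at 0.267 times SP8. The local background there was 14.5 to 17.9 times the genome-wide level at the 4 stages. At DP its percentile was 76.6, while the scaled pileup, 191, was the highest of the window at that stage. The +70.1 region, chr9:32705845-32706570, was likewise lowest at SP4, with 681 reads [631, 734] in DN, 437 [397, 480] in DP, 211 [183, 241] in SP4 and 414 [375, 456] in SP8. The +105.1 region, chr9:32740683-32741424, had the opposite order, with 241 reads [212, 273] at DN and 470 [428, 514], 531 [487, 578] and 481 [439, 526] at the other 3 stages.

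Also inside Ets1 lay a pair of neighbouring regions whose summits held more reads after DP. The +94.8 region, chr9:32730938-32731519, held 38 reads [26.9, 52.2] in DN, 31 [21.1, 44.0] in DP, 69 [53.7, 87.3] in SP4 and 158 [134, 185] in SP8. By percentile it stood at 50.1, 1.24, 0.129 and 43.4 from DN to SP8, so that DN was highest and SP4 lay below DP. Its local background was 1.71, 3.82, 10.4 and 7.9 times the genome-wide level in the same order. The +95.8 region, chr9:32731638-32732256, had no peak at DN or DP and held 450 reads [409, 494] at SP4 and 146 [123, 172] at SP8, with SP4 3.43 times SP8 on the scaled pileup. The 2 SP stages thus differed in opposite directions at these neighbours, SP4 being 0.486 times SP8 at +94.8. The sequence of +95.8 held 1 match, TTATCT, the GATA motif on the other strand.

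**Figure D4:**
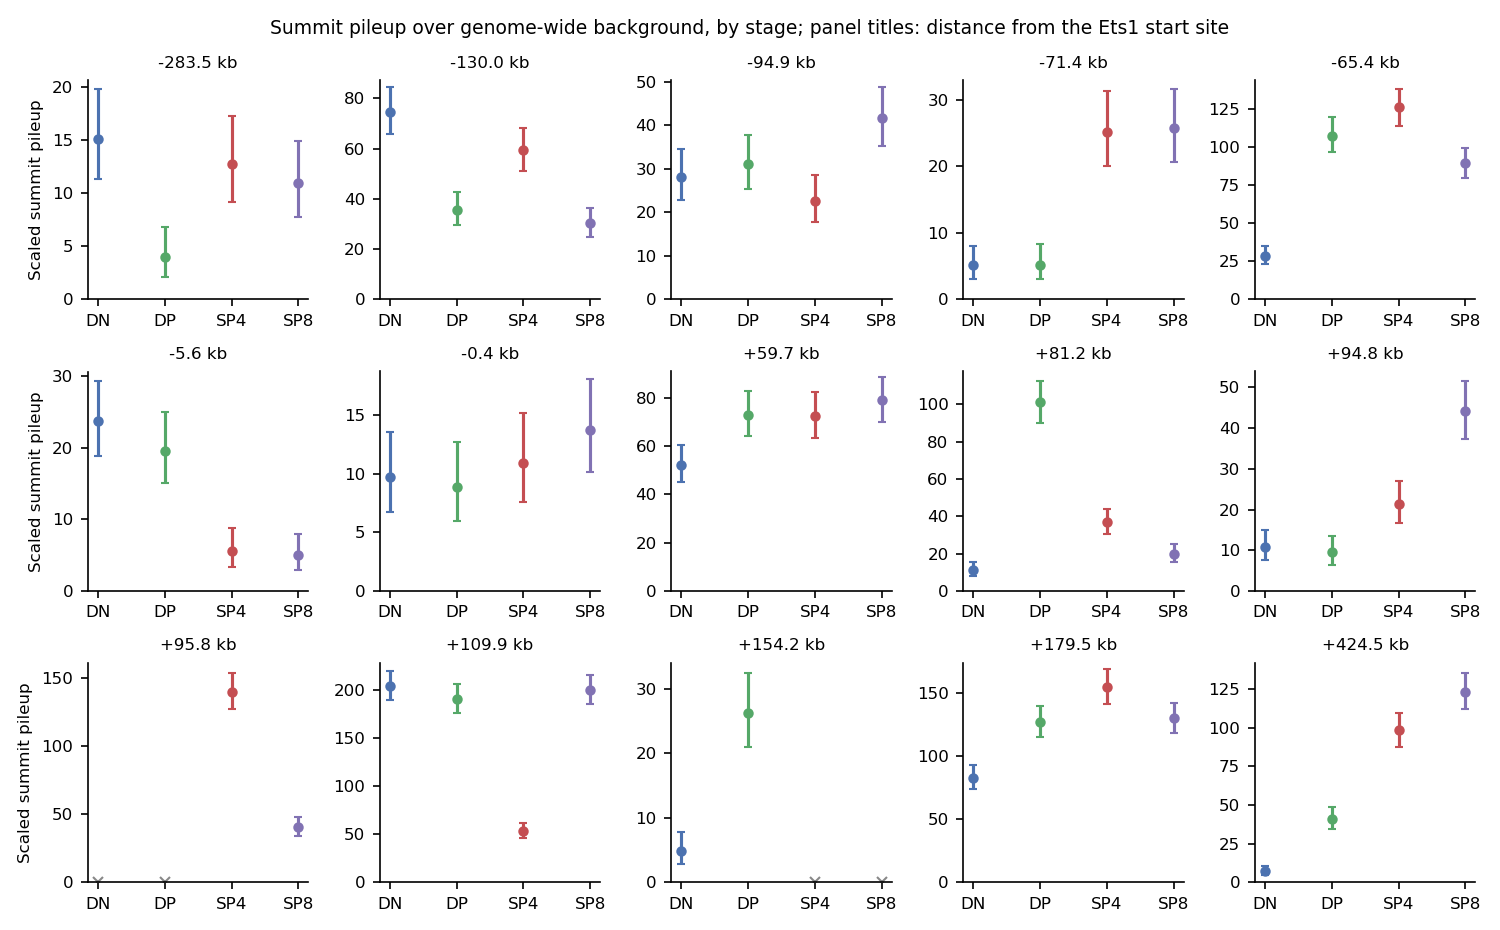
Scaled summit pileup (vertical axes, linear from 0, scaled separately in each panel) at DN, DP, SP4 and SP8 (horizontal axes) for 15 regions named by their distance from the Ets1 start site. Points are the pooled lists, bars the 95% Poisson limits and grey crosses at 0 stages without a called peak. DP stands above the other 3 stages at +81.2, SP4 below them at +109.9, and DN below them at -65.4, +179.5 and +424.5.

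Past Ets1, several distal sites were called at some stages and not at others. The +154.2 region, chr9:32790292-32790589, in an intron of the lncRNA gene Gm3331 in the longer RefSeq model, held 17 reads [9.90, 27.2] at DN and 86 [68.8, 106] at DP, 5.42 times as high on the scaled pileup, and no peak at SP4 or SP8. Its sequence held the E-box CAGCTG 2 times. The +198.4 region, chr9:32834459-32834716, at the very end of Gm3331 in RefSeq, was called at each stage but DN, with 39 reads [27.7, 53.3] at DP, 37 [26.1, 51.0] at SP4 and 33 [22.7, 46.3] at SP8, whose intervals overlap.

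At +290.2, chr9:32925919-32926674, in an intron of the lncRNA gene Gm27162, lay the region with the highest scaled pileup of the window at SP4 and at SP8, which was named after its values were seen. It held 132 reads [110, 157] in DN, 415 [376, 457] in DP, 765 [712, 821] in SP4 and 734 [682, 789] in SP8. DP was 3.37 times DN, and SP4 and SP8 were 1.88 and 1.62 times DP. Its percentiles, 50.7, 74.4, 80.8 and 75.3 from DN to SP8, stood beside a local background that reached 17.9 times the genome-wide level at SP4.

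Farther out most calls were made at the SP stages. The +326.7 region, chr9:32962806-32963203, was called at SP4 alone with 53 reads [39.7, 69.3]. The +371.7 region, chr9:33007686-33008051, was called at SP4 with 25 reads [16.2, 36.9] and at SP8 with 68 [52.8, 86.2]. The +351.8 region, chr9:32987889-32988255, was called at every stage but was high at SP8, with 19 reads [11.4, 29.7] in DN, 36 [25.2, 49.8] in DP, 16 [9.15, 26.0] in SP4 and 85 [67.9, 105] in SP8, so that SP4 was 0.209 times SP8.

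Of the 6 regions in the last 100 kb, the 2 highest by mean percentile lay in introns of the lncRNA gene Gm27166. The +424.5 region, chr9:33060569-33061296, held 26 reads [17.0, 38.1] in DN, 135 [113, 160] in DP, 316 [282, 353] in SP4 and 441 [401, 484] in SP8. DP was 5.56 times DN, and SP4 and SP8 were 2.38 and 2.99 times DP. None of these intervals overlap. The +444.2 region, chr9:33080328-33080723, held 51 reads [38.0, 67.1] at DN and 118 [97.7, 141], 110 [90.4, 133] and 113 [93.1, 136] at the other 3 stages, whose intervals overlap. Both held ETS and RUNX matches around their summits.

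Motif matches were counted in the 100 bases on either side of the highest summit of each region. Over all 217 regions the shares of 4 families lay near those of the genome. ETS matches were in 19 regions (8.76%, against 8.86% over all regions), RUNX in 27 (12.4%, against 11.4%), E-box in 77 (35.5%, against 37.1%) and TCF7/LEF1 in 21 (9.68%, against 9.40%). Higher shares were found for GATA, in 25 (11.5%, against 8.11%), and AP-1, in 20 (9.22%, against 7.20%). The CTCF core had a lower one, in 20 (9.22%, against 12.3%). Over whole regions GATA matches numbered 0.676 per kb, against 0.398. In the 73 regions called at every stage GATA matches were in 8 (11.0%, against 6.96%).

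The sets of stages differed more. E-boxes, the sites of E proteins such as E2A and HEB, were present in 27 of the 41 regions called at DN or DP but at neither SP stage, 65.9%, and in 8 of the 66 regions called at SP4 or SP8 but neither earlier stage, 12.1%. Over all regions the same sets had 48.6% and 20.9%, so the direction was shared by the genome. ETS matches were present in 12 of the 73 regions called at every stage, 16.4% against 11.3%, and in 1 of the 66 SP regions, 1.52% against 6.28%. RUNX matches were present in 14 of the 73, 19.2% against 11.1%. These are small counts of neighbouring regions and are given as a description. Of the printed stretches, the -65.4 and +424.5 ones hold ETS matches, and both regions were called at every stage.

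**Figure D5:**
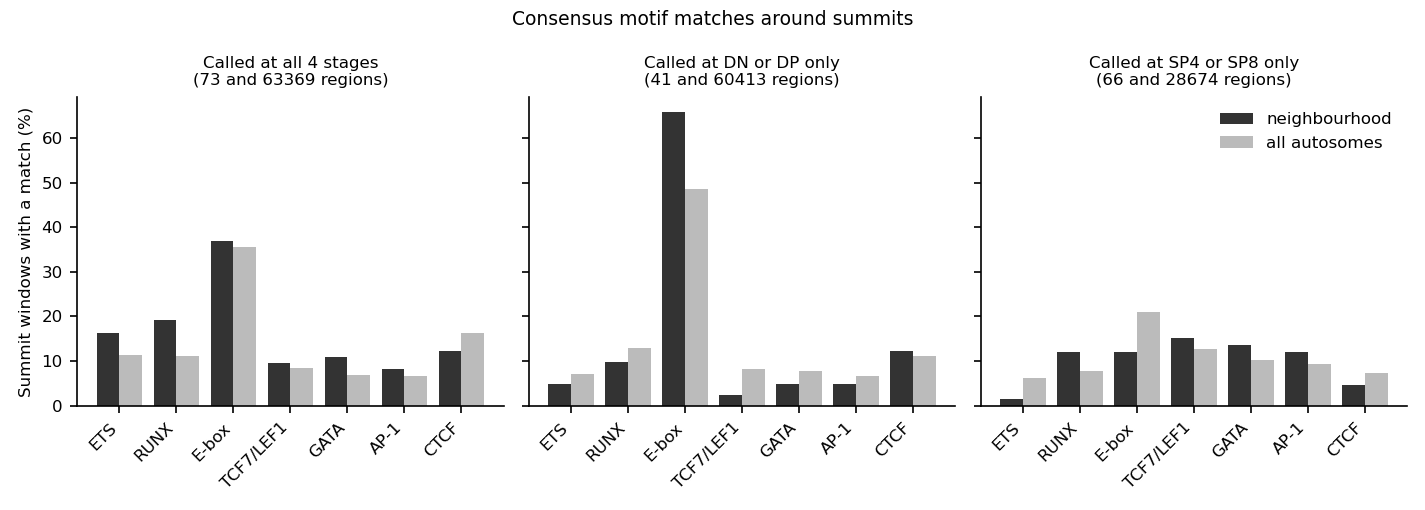
Share of summit windows with at least 1 match in percent (vertical axes) for 7 motif families (horizontal axes), in regions of the neighbourhood (dark bars) and of all autosomes (light bars), for 3 sets of stages. The E-box bar of the neighbourhood is at 65.9 in regions called at DN or DP only and at 12.1 in regions called at SP4 or SP8 only.

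Few of the regions were promoters. A start site or the 200 bp upstream of one lay under 13 of them, 5.99% against 12.4% over all regions, with 16 at other exons, 116 in introns and 72 between genes. Of the other protein-coding genes in the window, Kcnj5 had a called start at DN alone and Kcnj1 at DN and DP, and neither had one at SP4 or SP8. These calls were weak, with 20 reads [12.2, 30.9] for Kcnj5 and 17 [9.90, 27.2] and 15 [8.40, 24.7] for Kcnj1. Before Fli1 the -283.5 region, chr9:32352596-32352926, in an intron of the lncRNA gene Gm39317, held 53 reads [39.7, 69.3] in DN, 13 [6.92, 22.2] in DP, 41 [29.4, 55.6] in SP4 and 39 [27.7, 53.3] in SP8, so that DP lay below the other 3 stages. Gm39317 had a called start at SP4 alone, at the -287.0 region, with 14 reads [7.65, 23.5]. Gm27201, an antisense transcript inside Fli1, had one at DN and DP, at the -127.9 region, whose percentiles there were 0.125 and 10.1.

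Marker genes of thymocytes and other cell types were set beside the sort. All 7 thymocyte markers (Cd3e, Cd3g, Lck, Cd4, Cd8a, Rag1 and Ptcra) had a called start at every stage. A call alone cannot check the sort, since 66.4% of autosomal protein-coding genes had one at DN and 60.6% at SP8. On the scaled pileup from DN to SP8, Ptcra stood at 99.5, 88.5, 5.59 and 4.19 and Cd8a at 26.8, 101, 13.4 and 89.9. Rag1 stood at 48.4, 96.5, 14.6 and 12.0, while Cd3e, Cd3g, Lck and Cd4 changed less. Fli1 and Ets1 are also used in other blood cells and endothelium, of which the marker starts called at DN, DP, SP4 and SP8 were 2, 2, 2 and 2 of 4 for B cells, 3, 2, 2 and 2 of 5 for myeloid cells, 1, 1, 1 and 1 of 5 for NK and innate lymphoid cells, 2, 2, 2 and 1 of 5 for endothelium, and 4, 2, 3 and 3 of 5 for megakaryocytes. Of the 3 autosomal erythroid markers 2 were called at every stage. Ms4a1, Cd79a, Ncr1, Tyrobp, Cdh5 and Tek had none at any stage, and Pf4 and Lyz2 had one at DN alone. The summed scaled pileups of the starts, from DN to SP8, were 80.4, 45.2, 42.2 and 64.8 for megakaryocytes and 117, 74.2, 55.6 and 37.4 for B cells. They were 130, 74.8, 59.0 and 106 for myeloid cells, 100, 137, 147 and 109 for endothelium, 95.5, 93.8, 109 and 111 for erythroid cells, 18.2, 22.6, 19.3 and 25.7 for NK and innate lymphoid cells, and 602, 713, 426 and 515 for thymocytes. The part of other cells in the values around Fli1 and Ets1 was not tested.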

How the data were processed

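ATAC-seq of 16 libraries (4 stages from each of 4 mice) was used as the authors' processed peak lists. Reads were aligned to mm10 with BWA, duplicates were removed with Picard, low-quality alignments were dropped, and libraries were capped at the median depth and pooled by stage. MACS2, which the submitters' processing notes list without a version, called peaks at 5% FDR, and blacklisted regions were left out. The authors deposited for each peak a score (not used), a fold enrichment, which is a ratio to the local background, the −log10 p-value and q-value, and a summit offset. The lists hold no read totals. The study's methods state similar totals for the 4 pools, and the precision of each value is given here from the summit reads recovered. Pooling gives a mouse with more reads at a site more weight there, and peak callers lose weak sites where the local background is high.

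The lists cover the autosomes. Peaks with an overlap of 1 bp or more, across all lists, were merged into regions. Reads k and local background b at a summit were solved from fold = (k + 1)/(b + 1) and the Poisson p-value, which failed for 8 peaks of all lists. A region was set at a promoter where it overlapped a start site or the 200 bp upstream in GENCODE M21 or RefSeq (GRCm38.p6), otherwise at an exon, an intron or between genes. Sequence was read from the RefSeq mm10 genome, and motifs were exact matches of 13 strings in 7 families. No test between stages was possible, and values are descriptions. Python 3.11.15, numpy 2.4.6, pandas 2.3.3, scipy 1.17.1 and matplotlib 3.10.9 were used, and merging, read recovery and motif search were tested on simulated data.

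The genes, window, lists and motifs were chosen with earlier results of these data known. One marker gene of the cell type lists is not reported here. Of the window's regions 59 could be named by rule: those at Fli1 or Ets1 start sites, the 3 highest by mean percentile in each of 5 zones, the 2 highest of each set of stages other than all 4, the 3 largest rises and falls in percentile along each transition, and the 3 widest. Alternatives covered the q-value limit, equal list lengths, window and merging rules, measures of height, thresholds and motif windows. The scaled pileup and the ratio of 2 were added as measures after the data were seen.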

Additional observations from a re-analysis of the deposited data

How the results depend on the processing

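Of 282 values of 72 results recomputed under the alternatives, 252 lay within 1.5 times of the reported value and 30 moved by more. With lists cut to an equal 104411 peaks, regions called at DN alone made up 1.99% (11.1% over all regions), those at DP alone 7.46% (8.12%) and those at DP, SP4 and SP8 9.95% (4.58%), and from DN to DP 3.76% were called at DN alone (21.5%) and 35.3% at DP alone (20.6%). With summits joined within 100 bp, DP alone made up 6.59% (6.98%). The share called at SP4 or SP8 without DN or DP lay between 24.3% and 34.9% under the alternatives (14.9% to 20.3% over all regions).

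Counts of the 73 shared regions follow, with the share over all shared regions in brackets. Past a difference of 15 points, 14 (10.5%) were higher and 13 (21.5%) lower from DN to DP. From DP to SP4 these were 13 (18.7%) and 15 (16.4%), from DP to SP8 16 (16.9%) and 13 (18.2%). At SP4 relative to SP8 they were 6 (14.6%) and 12 (10.9%). Past 40 points 2 (1.43%) were higher from DN to DP. From DP to SP4 there were 3 (3.67%) higher and 5 (3.26%) lower, from DP to SP8 3 (3.2%) and 3 (3.65%). At SP4 relative to SP8 there were 1 (1.73%) and 3 (1.22%). By −log10 q, 4 (4.12%) were lower at SP4 than at SP8. By a ratio of scaled pileups of at least 2, a measure chosen after seeing the data, 11 (4.13%) were higher from DN to DP. From DP to SP4 13 (13.4%) were higher and from DP to SP8 17 (12.6%). At SP4 relative to SP8 1 (6.19%) was higher and 4 (4.55%) were lower. Over whole regions, matches per kb relative to all regions were 0.327 for ETS and 0.361 for AP-1 at DN or DP only and 0.96 for RUNX at SP4 or SP8 only. The cause of these differences was not tested.

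No paired analysis was possible because the 4 mice of each stage were pooled before peaks were called. Leaving out each mouse was not run for the same reason, so the spread between mice is unknown. Intervals cover counting error only, a site under the caller's threshold counts as not called, and the motif strings were not varied.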
